A study of Mus musculus with 2 samples.

Results

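The cytosolic ribosomal protein genes encode the protein components of the large (Rpl) and small (Rps) subunits of the ribosome that translates nuclear messenger RNA. They were taken by symbol: Rpl or Rps followed by a number and an optional letter, with Rpsa, Rplp0, Rplp1 and Rplp2, and without processed-pseudogene names and the Rps6k kinases. This gave 80 genes of the 31053 listed. They were measured in single-cell libraries of mouse bone marrow, sorted as viable, CD45+, lineage-negative, CD127+ cells and prepared with 10x Chromium 3′ chemistry version 3.1. One library came from pooled wild-type C57BL/6 mice (WT) and the other from pooled LCR1-/- mice (KO), both 8 to 12 weeks old, with males and females in equal number and no treatment. The design concerns how ILC2, the type 2 innate lymphoid cells, develop when LCR1 is deleted. How many mice were pooled and where LCR1 lies are not stated in the labels, and no count in a gene table checks the deletion. With 1 library per genotype there is no replicate error, so every difference between genotypes is also a difference between these libraries. Intervals below cover counting error only, and no p-value was computed.

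Each ribosome holds about equal numbers of most ribosomal proteins, and their messages are regulated largely as a group. Most of these messages begin with a short pyrimidine stretch, the 5′ terminal oligopyrimidine (TOP) motif, through which mTOR signalling and Larp1 control their translation. Growing and dividing progenitors are known for a high output of new ribosomes, which also needs nucleolar assembly factors such as Npm1, Ncl and Fbl.

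Barcodes with at least 1000 genes and at most 10% mitochondrial unique molecular identifiers (UMIs) were kept, which left 3290 of 20293 in WT and 4343 of 8476 in KO. Their median depth was 5371.5 UMIs in WT and 7261 in KO. The libraries shared 75 barcode sequences before this filter and 0 after it. Il7r, which encodes CD127, had a UMI in 85.7% of kept WT barcodes and 93.0% of kept KO barcodes, and Ptprc, which encodes CD45, in 80.6% and 90.7%. A barcode entered a class when at least 3 of 8 marker genes of that class had a UMI and no other class came within 1 marker of it. This placed 1937 WT and 2702 KO barcodes. Of 9 classes, 6 had at least 50 barcodes in each library and were compared. The class names stand for these gates.

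Sequences around the annotated transcription start are shown for 7 of the genes whose share differs most between classes (below), since the TOP motif would lie there. Each is 30 bases from RefSeq (GRCm38.p6), with the start at base 16, and capitals mark runs of 5 or more pyrimidines.
Rps27 (chr3:90213634-90213663, minus strand): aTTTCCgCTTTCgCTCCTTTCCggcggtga
Rpl28 (chr7:4792950-4792979, plus strand): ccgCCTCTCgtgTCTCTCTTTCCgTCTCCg
Rpl38 (chr11:114668565-114668594, plus strand): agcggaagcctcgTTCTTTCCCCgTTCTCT
Rpl31 (chr1:39367836-39367865, plus strand): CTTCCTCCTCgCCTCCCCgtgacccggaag
Rpl4 (chr9:64173372-64173401, plus strand): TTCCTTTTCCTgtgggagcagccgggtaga
Rps27l (chr9:66946071-66946100, plus strand): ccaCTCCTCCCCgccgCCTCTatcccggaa
Rpl10 (chrX:74270801-74270830, plus strand): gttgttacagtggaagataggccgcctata

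Rps27, Rpl28 and Rpl38 had C followed by 4 pyrimidines exactly at the annotated start. In Rpl31 a pyrimidine run covered the annotated start, but C followed by 4 pyrimidines did not begin there. Rpl4 and Rps27l had pyrimidine runs nearby but not at the annotated start, and the Rpl10 window had none of 5 or more. Of the 80 genes, 61 had an entry, with 73 promoters, and 14 of these (19.2%) carried C followed by 4 pyrimidines at the start on the transcribed strand, against 2.51% of all 32851 promoters. A run of at least 8 pyrimidines overlapped the 30 bases in 43.8% of the ribosomal protein promoters and in 17.6% of all promoters. An annotated start can lie some bases away from the start a cell uses, so no match says only that these letters are not at the annotated base.

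Ribosomal protein messages made up 26.4% of all UMIs in kept WT barcodes and 25.9% in kept KO barcodes. Of the 80 genes, 79 had a UMI in each library, and 75 were detected in at least 90% of barcodes in both. Their median level in counts per 1000000 UMIs (CPM) was 3250 in WT and 3256 in KO. The same 5 genes, Rps29, Rps24, Rpl39 and Rpl13 among them, led in both libraries and together held 12.7% of the ribosomal protein UMIs in WT and 13.2% in KO. Rps29, a small zinc-binding protein of the 40S subunit, had 7957 (WT) and 8641 (KO) CPM. The family was not even, since 3 genes lay under 1000 CPM beside the 3 near-silent paralogues described below. Rps27l had 298 (WT) and 300.2 (KO) CPM, Rpl13a had 418 and 334, and Rpl27 had 830.1 and 704. These 3′ counts are per message end, and the near-identical processed copies that many of these genes have make their individual levels uncertain.

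The share of UMIs in ribosomal protein genes differed by class, with ILC2 highest and plasmacytoid dendritic cells and basophils lowest in both libraries. In ILC2, tissue lymphocytes that make type 2 cytokines, it was 31.5% (exact 95% interval 31.4 to 31.5) in 662 WT barcodes and 31.4% (31.4 to 31.5) in 520 KO barcodes. The class gated with NK cell and ILC1 genes followed at 28.3% in 77 WT barcodes, against 25.9% in 269 KO barcodes, where it lay below lymphoid progenitors. Lymphoid progenitors held 27.6% in 624 WT barcodes and 27.6% in 1027 KO barcodes. ILC precursors, which carry Zbtb16 and Tcf7, held 24.8% in 137 WT barcodes and 23.4% in 575 KO barcodes. Plasmacytoid dendritic cells held 20.4% in 103 WT and 19.7% in 61 KO barcodes, and basophils 19.9% in 284 WT and 20.3% in 185 KO barcodes. The highest class was 1.58 times the lowest in WT and 1.59 times in KO, and the intervals of ILC2 did not overlap those of any other compared class.

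**Figure D1:**
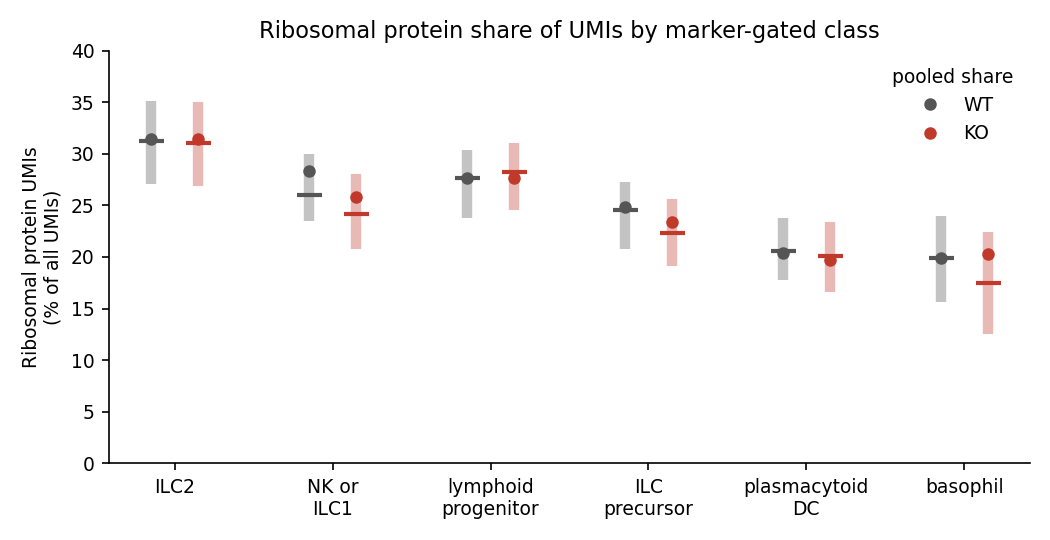
Ribosomal protein UMIs as a percent of all UMIs (vertical axis, from 0) in 6 marker-gated classes, WT in grey and KO in red. Points are the pooled share, horizontal dashes the per-barcode median and wide bars the quartiles; ILC2 sits highest, at 31.5% and 31.4%, and the quartile ranges of neighbouring classes overlap.

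Single barcodes varied within each class. The quartiles of WT ILC2 barcodes lay at 27.1% and 35.2%, and those of WT lymphoid progenitors at 23.7% and 30.4%, so single barcodes of these classes overlap. In ILC2 the share also moved with depth. It was 26.4% in WT barcodes of 1000 to 3000 UMIs, 30.5% at 3000 to 6000 and 33.5% at 6000 to 12000. The same steps in KO ILC2 read 25.9%, 31.1% and 34.5%. At equal depth ILC2 thus stayed close between genotypes, and at 6000 to 12000 UMIs its share was above the 25.9% of WT and 25.6% of KO lymphoid progenitors. A set of 37 KO barcodes gated as lymphoid progenitors at 3000 to 6000 UMIs had only 13.6%, while 73 such WT barcodes had 25.3%. In basophils, the 8 gate genes alone made 54773 CPM in WT and 54078 CPM in KO, and their part in the low basophil share was not tested.

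Barcodes with UMIs of at least 3 of 16 cycling genes made up 28.5% of WT ILC2 and 96.0% of WT lymphoid progenitors. These shares were not matched for depth, and the summed cycling genes had 921 CPM in WT ILC2, 895 CPM in WT NK or ILC1 and 6264 CPM in WT lymphoid progenitors. Within WT ILC2, 189 cycling barcodes had a ribosomal protein share of 30.8% and 473 others had 31.8%. KO ILC2 showed 30.6% and 31.6%. In the 4 other classes with enough barcodes of both kinds, the share was higher in cycling barcodes in both libraries. In ILC precursors it was 25.2% in cycling and 23.0% in other WT barcodes and 24.0% and 22.5% in KO. NK or ILC1 showed 29.3% and 27.5% in WT and 26.1% and 25.7% in KO, lymphoid progenitors 27.7% and 25.5%, then 27.7% and 24.2%, and basophils 20.1% and 18.6%, then 20.8% and 17.9%. Cycling barcodes were also deeper in these groups except WT basophils (median 14470.5 against 6273 UMIs in WT ILC precursors), and the part of depth was not tested. The balance between subunits barely differed. Large-subunit UMIs were 1.18 to 1.24 times small-subunit UMIs across the 6 WT classes and 1.15 to 1.24 times across the KO classes.

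Not every ribosomal protein gene followed the family. To see this apart from the share of the whole family, each gene was expressed per 10000 ribosomal protein UMIs, and a gene was called uneven when its highest class was at least 1.5 times its lowest class in each library. Of the 77 genes with at least 50 CPM in each library, 9 were uneven, 6 of the large and 3 of the small subunit, and the median highest-to-lowest ratio of the 77 was 1.28 in WT and 1.27 in KO. For 8 of the 9, the same class was highest in both libraries, and for 7 the lowest class matched as well. Over all 77, the highest class matched for 62 and the lowest for 58. On the ordinary CPM scale, 59 of the 77 (76.6%) passed 1.5 in each library, against 79.2% of 3003 genes of at least 50 CPM, so by that measure the family stood near the background. Among genes of at least 1000 CPM, 56 of 74 ribosomal protein genes (75.7%) and 32 of 47 other genes (68.1%) passed, or 72.7% of all 121.

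Rps27l was the most uneven gene. It encodes a close paralogue of the small-subunit protein Rps27 and is known as a p53 target. In WT it made 4.24 of every 10000 ribosomal protein UMIs in ILC2, 5.54 in NK or ILC1, 10.6 in ILC precursors, 12.6 in basophils, 14.3 in lymphoid progenitors and 14.6 in plasmacytoid dendritic cells. In KO the same classes read 3.75, 8.12, 9.90, 10.3, 14.0 and 14.9. Its highest class was therefore 3.45 times its lowest in WT and 3.97 times in KO. On the CPM scale lymphoid progenitors were highest, at 395 (WT) and 388 (KO) CPM, against 298 and 294 CPM in plasmacytoid dendritic cells. Rps27 itself ran the other way between lymphoid progenitors and ILC2 or NK or ILC1. It made 205 per 10000 in WT NK or ILC1 and 201 in WT ILC2, but 112 in WT lymphoid progenitors, and 213, 211 and 120 in KO. The part of Rps27l in the sum of the pair was thus 2.07% (exact 95% interval 1.89 to 2.25) in WT ILC2 and 1.75% (1.56 to 1.96) in KO ILC2, against 11.4% (11.0 to 11.7) and 10.5% (10.2 to 10.7) in lymphoid progenitors. ILC precursors lay between them at 6.91% and 5.62%. Both libraries gave the same order of these 3 classes, with intervals that did not overlap.

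Rpl31, a protein at the rim of the exit tunnel of the large subunit, took its largest part of the ribosomal protein UMIs in plasmacytoid dendritic cells. It made 82.9 per 10000 there in WT and 73.8 in KO, against 51.5 and 49.6 in lymphoid progenitors and 30.8 and 27.8 in ILC2. On the CPM scale plasmacytoid dendritic cells and progenitors were closer, at 1690 and 1424 CPM in WT and 1456 and 1369 CPM in KO. Rpl10, which is needed for the final maturation of the large subunit, took a larger part of the ribosomal protein UMIs in plasmacytoid dendritic cells and basophils: it made 116 per 10000 in each of these in WT, against 72.6 in ILC2. In KO the values were 101, 107 and 62.0. On the CPM scale Rpl10 was nearly flat, at 2374 CPM in WT plasmacytoid dendritic cells, 2316 CPM in WT basophils and 2285 CPM in WT ILC2, and it was the 1 gene of the 9 that did not pass 1.5 on that scale. Rpl38, known for its part in the translation of Hox messages in the mouse embryo, was lowest in plasmacytoid dendritic cells at 132 and 133 per 10000. It was highest in NK or ILC1 at 223 and 233, with basophils close at 220 and 230.

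Per 10000 ribosomal protein UMIs, Rpl4 was highest in lymphoid progenitors, and Rpl28 was lowest in ILC2. Rpl4, whose long loop lines the exit tunnel, made 52.7 per 10000 in WT progenitors and 49.6 in KO, and 28.9 and 26.7 in ILC2. Rpl28 made 168 and 163 in progenitors and 97.7 and 92.6 in ILC2. Per 10000, Rpl28 was near the progenitor value in plasmacytoid dendritic cells (159 and 163) and basophils (157 and 155). On the CPM scale both classes lay nearer ILC2, at 3245 and 3126 CPM in WT, against 3072 CPM in WT ILC2 and 4630 CPM in WT progenitors. NK or ILC1 was lowest for Rpl28 on that scale, at 2831 (WT) and 2464 (KO) CPM. Rplp1, a stalk protein that with Rplp2 recruits translation factors to the ribosome, was highest in ILC2, at 284 and 263 per 10000, and lowest in basophils, at 166 and 142. Just below the threshold were Rps15a, which passed it in KO (1.53) but not quite in WT, and Rps6, which passed it narrowly in WT but not quite in KO.

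**Figure D2:**
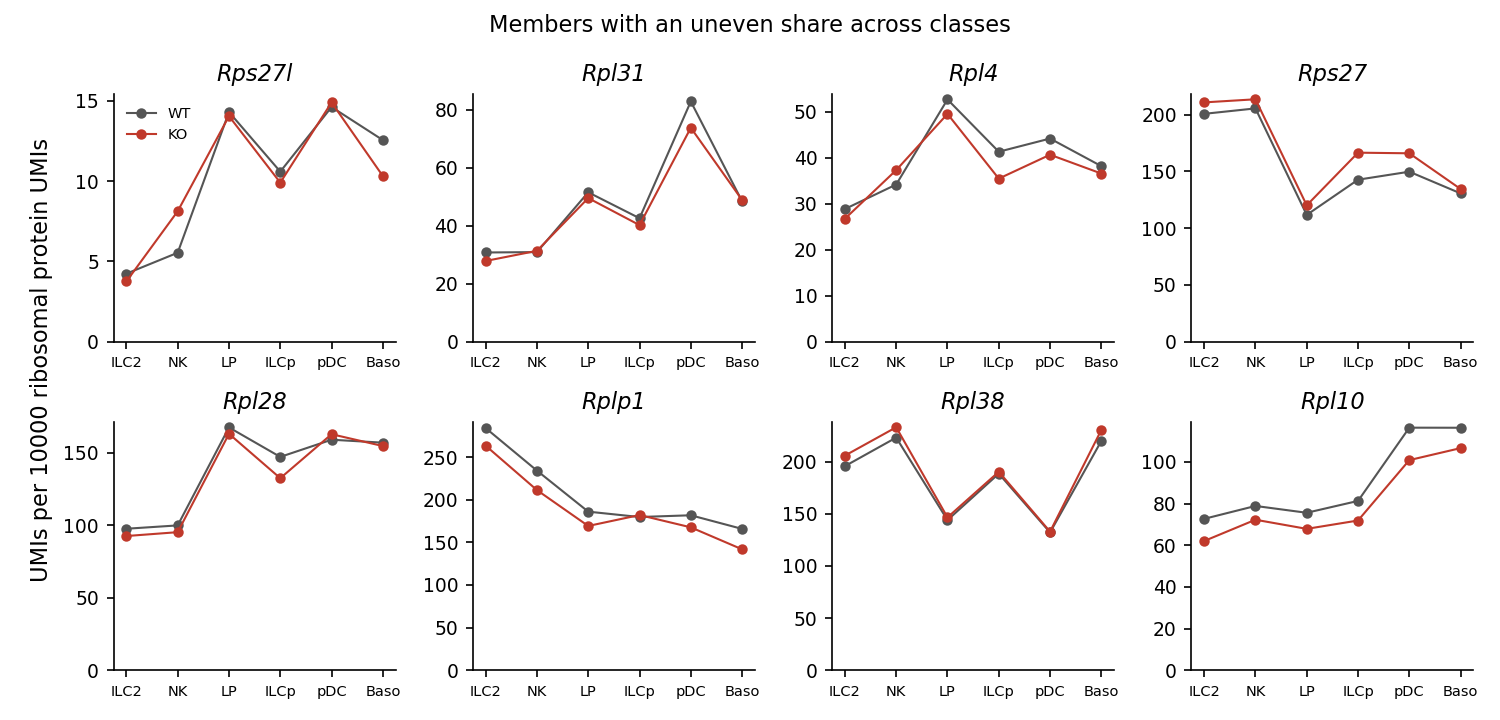
UMIs of 8 uneven genes per 10000 ribosomal protein UMIs (vertical axes, from 0) in ILC2, NK or ILC1 (NK), lymphoid progenitors (LP), ILC precursors (ILCp), plasmacytoid dendritic cells (pDC) and basophils (Baso), WT in grey and KO in red, with lines joining classes only to guide the eye. Rps27l is higher and Rps27 lower in lymphoid progenitors than in ILC2 and NK or ILC1, Rpl31 peaks in plasmacytoid dendritic cells and Rplp1 in ILC2.

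ILC2 and lymphoid progenitors, the 2 largest gated classes in WT, were then compared gene by gene in each library, with a gene called when its CPM differed by at least 1.2-fold and its exact 95% interval left out 1. This comparison was chosen after the class shares had been seen. In WT, 24 of 77 ribosomal protein genes were higher in ILC2 (27.4% of all 3664 genes tested) and 7 were lower (49.5% of all genes). In KO, 23 were higher (26.9% of 3521) and 8 were lower (51.1%). The median ratio was 1.08 in both. The same 22 genes were higher in both libraries, the same 7 were lower, and none was called in opposite directions. How often a call was repeated over all genes was not counted, so this agreement has no background beside it. ILC2 and progenitors come from the same library each time, so the 2 comparisons share no barcodes.

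Rps27 had the highest ratio, from 3084 CPM in WT progenitors to 6312 CPM in WT ILC2, or 2.05-fold (2.01 to 2.08), and from 3318 to 6620.4 CPM in KO, 2.00-fold (1.96 to 2.03). Rplp1 was 1.74-fold higher in WT (5139 to 8939 CPM) and 1.77-fold higher in KO (4677 to 8279 CPM). Rpl37a, a zinc-binding protein of the large subunit, was 1.64-fold and 1.68-fold higher, and Rpl38 was 1.55-fold and 1.60-fold higher. The abundant Rps24 and Rps29 were also among the 22, at 1.40-fold and 1.28-fold in WT. The 7 lower genes included Rps27l, Rpl4, Rpl28, Rpl31, Rps25 and Rps2. Rps27l was 2.96-fold higher in progenitors than in ILC2 in WT (395 against 133 CPM) and 3.29-fold in KO (388 against 118 CPM). Rpl4 was 1.60-fold and 1.63-fold higher in progenitors, and Rpl31 1.47-fold and 1.57-fold. Rps2, a protein near the entry of the messenger RNA channel, was 1.24-fold and 1.21-fold higher. The progenitor class was deeper (median 15090 UMIs against 5331.5 in WT ILC2), and the part of depth was not tested in this comparison. Hemoglobin and other erythroid genes, which the sorted cells should lack, stood at 1740 CPM in WT ILC2 and 29.8 CPM in KO ILC2. In lymphoid progenitors they stood at 1132 and 58.7 CPM, and the part of such RNA in these ratios was not tested.

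**Figure D3:**
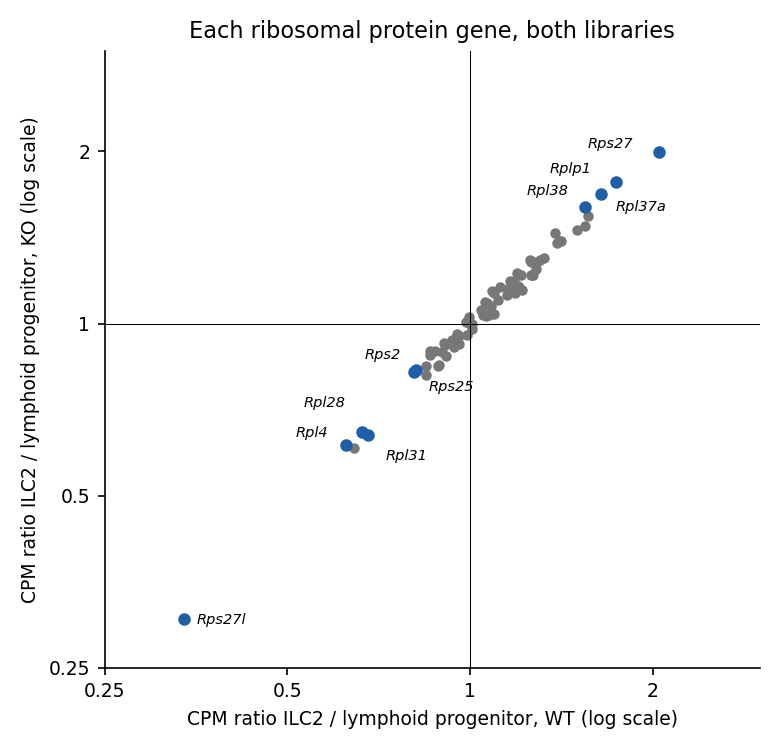
CPM in ILC2 over CPM in lymphoid progenitors for each of 77 ribosomal protein genes, in WT (horizontal, log scale) and KO (vertical, log scale), 1 point a gene. Rps27l lies lowest at 0.34 and 0.30, Rps27 highest at 2.05 and 2.00, and the 22 genes called higher and 7 called lower in both libraries keep their direction.

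Other lists of the translation machinery differed from each other between ILC2 and lymphoid progenitors. Over all genes tested, 49.5% were lower in ILC2 in WT and 51.1% in KO. Of 22 ribosome biogenesis genes tested, 19 were lower in ILC2 than in lymphoid progenitors in each library and 0 were higher, with a median ratio of 0.45 in WT and 0.50 in KO. Npm1, a nucleolar chaperone, stood at 1013 CPM in WT ILC2 and 1814 CPM in WT progenitors, and Fbl, the methyltransferase of ribosomal RNA, at 117 and 266 CPM. Genes of the mitochondrial ribosome also ran lower: 41 of 49 in WT and 41 of 48 in KO, with medians of 0.69 and 0.68. Translation factors lay nearer 1, with 6 of 17 lower in each library, 1 higher in WT and 3 in KO, and medians of 0.91 and 0.89. Tpt1, the 1 called higher in WT, had 7004 CPM in WT ILC2 and 3971.5 CPM in WT progenitors. Eef1b2 went the other way, at 1172 and 1574 CPM, as did Pabpc1, at 739 and 1112 CPM. Among 8 ribosomal proteins with names outside the rule, 3 were higher in ILC2 in each library and 1 was lower. Fau, which encodes the small-subunit protein eS30 fused to a ubiquitin-like domain, stood at 5448 CPM in WT ILC2 and 3946 CPM in WT progenitors. The growth control list, with mTOR and Myc pathway genes, had 2 higher and 3 lower of 9 in WT and 2 higher and 5 lower of 10 in KO. Myc, a driver of ribosome production, stood at 25.3 CPM in WT ILC2 and 94.0 CPM in WT progenitors.

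Some ribosomal protein genes have tissue-restricted paralogues. Rpl10l, a testis form of Rpl10, had 0 UMIs in both libraries, which allows up to 0.103 CPM in WT and 0.0704 CPM in KO at 3 counts. Rpl3l, a form of Rpl3 known from heart and skeletal muscle, had 86 UMIs in WT and 127 in KO. Of these, 44 and 83 were in lymphoid progenitors, where 6.25% and 7.01% of barcodes had one. Only 5 and 8 were in plasmacytoid dendritic cells, a smaller class, where 4.85% and 13.1% of barcodes had one. Per UMI this gave 6.03 and 13.2 CPM there, against 4.38 and 4.96 CPM in progenitors. In ILC2 it had 0 UMIs in WT and 1 in KO. It still made only 0.155% and 0.178% of the Rpl3 pair in progenitors. Rpl39l had 34 UMIs in WT and 42 in KO, of which 6 and 0 were in NK or ILC1. Those 6 came from 2.60% of the WT NK or ILC1 barcodes. Another 9 WT UMIs were in barcodes gated as early B cells, a class too small to compare. In KO, 4 were in ILC precursors and 3 in lymphoid progenitors. In contrast Rpl22l1, the paralogue of Rpl22, was expressed throughout and made between 24.9% and 38.2% of the pair across the compared classes.

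Between genotypes, the family as a whole stayed within a few percent in 4 of the 6 classes. The KO over WT ratio of the ribosomal protein share was 0.999 (0.996 to 1.00) in ILC2 and 1.00 (0.999 to 1.00) in lymphoid progenitors. It was 0.967 (0.960 to 0.974) in plasmacytoid dendritic cells and 1.02 (1.02 to 1.02) in basophils. In basophils the per-barcode median went the other way, from 19.9% in WT to 17.5% in KO. The share was lower in KO ILC precursors, at 0.943 (0.939 to 0.946), and in KO NK or ILC1, at 0.913 (0.907 to 0.918). These 2 classes were also shallower in KO, as ILC2 and lymphoid progenitors were. Median depth was 10947 UMIs in WT and 7815 in KO ILC precursors and 6144 and 4543 in NK or ILC1. In ILC2 it was 5331.5 and 4480, and in lymphoid progenitors 15090 and 14877. Barcodes that counted as cycling were fewer in KO in every compared class. They were 68.6% and 44.3% in ILC precursors and 39.0% and 20.4% in NK or ILC1. Lymphoid progenitors had 96.0% and 93.1%, plasmacytoid dendritic cells 92.2% and 80.3%, and basophils 78.9% and 62.2%. The summed cycling genes had 895 CPM in WT and 1504 CPM in KO NK or ILC1, and 2328 and 2069.5 CPM in ILC precursors. Among barcodes of 3000 to 12000 UMIs the ratio was 1.00 in ILC precursors and 0.941 in NK or ILC1. Both pooled values join opposite directions. In ILC precursors the share was 24.5% in 22 WT and 20.6% in 159 KO barcodes at 3000 to 6000 UMIs, and 21.5% in 42 and 22.7% in 286 at 6000 to 12000 UMIs. In NK or ILC1 it was 23.0% in WT and 25.3% in KO at 3000 to 6000 UMIs, and 30.4% and 28.8% at 6000 to 12000 UMIs. In ILC2, cycling barcodes were 28.5% in WT and 12.5% in KO and the cycling genes 921 and 609 CPM, while the ribosomal protein share was 31.5% and 31.4%.

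Single ribosomal protein genes were compared between genotypes at 1.2-fold. In ILC2, 0 of 77 were higher in KO (8.59% of all 2899 genes tested) and 1 was lower (15.3%). In lymphoid progenitors 0 were higher (4.61% of 3208) and 2 were lower (8.35%). In plasmacytoid dendritic cells 0 were higher (6.09% of 3663) and 1 was lower (6.77%), and in basophils 0 were higher (5.65% of 3308) and 1 was lower (10.5%). ILC precursors had 0 higher (10.3% of 3451) and 10 lower (11.9%), and NK or ILC1 had 1 higher (7.48% of 3314) and 6 lower (5.94%). In these 2 classes the median ratio of the 77 genes was itself 0.921 and 0.915, against 0.977 and 0.999 over all genes tested, and 66 and 74 of the 77 ratios lay below 1. In ILC2 the median was 0.990 against 0.961 over all genes. Counted over all classes, 21 of 462 gene and class pairs were lower in KO and 1 was higher, from 15 different genes. The number lower depends on the setting: it was 66 with barcodes thinned to 2000 UMIs, 52 with barcodes weighted equally and 8 when counted per ribosomal protein UMI.

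Rpl13a, a large-subunit protein also known from translational silencing in interferon-treated cells, was lower in KO in 5 of the 6 classes. It had 403 (WT) and 328 (KO) CPM in ILC2, a ratio of 0.816 (0.748 to 0.889). In ILC precursors it stood at 439 and 301 CPM, in NK or ILC1 at 461 and 349 CPM, in lymphoid progenitors at 468 and 372 CPM and in basophils at 294 and 213 CPM. The ratios in these classes ran from 0.686 in ILC precursors to 0.795 in lymphoid progenitors. In plasmacytoid dendritic cells the ratio was 0.845 (0.687 to 1.04) and was not called. Every compared class was thus lower in KO by value, and a difference common to all classes cannot be told apart here from a difference between the libraries. Rpl13a has near-identical processed copies, so its count depends on how the authors' pipeline assigned reads among them.

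Rpl27, Rpl41 and Rpl7a were lower in KO in 2 classes each. Rpl27 had 858 (WT) and 676 (KO) CPM in ILC precursors and 844 and 700.2 CPM in lymphoid progenitors. Rpl41, which encodes the shortest of the ribosomal proteins, stood at 5075 and 4226 CPM in ILC precursors and at 5602 and 4345 CPM in NK or ILC1. Rpl7a stood at 1205 and 981 CPM in ILC precursors and at 1189.5 and 959 CPM in plasmacytoid dendritic cells. Each of these 3 genes had a ratio under 1 in all 6 classes, as 23 of the 77 genes did, while 1 gene was above 1 in all. The same count over all genes was not made. Their median ratio was itself under 1 in every compared class, from 0.961 in ILC2 to 0.999 in NK or ILC1. The other genes called in 1 class only are named here outside the naming rule. Rps2, Rps6, Rpl3, Rpl4, Rpl5 and Rpl29 were lower in ILC precursors, and Rpl9, Rps7, Rps12 and Rplp1 in NK or ILC1. Rps2 differed most of these, from 3069 CPM to 2208 CPM, a ratio of 0.720 (0.696 to 0.744). These calls are on CPM and include the lower share of the whole family in these classes. Counted per ribosomal protein UMI, only Rps2 among them reached 1.2-fold lower. Its lowest ratio in any compared class was then 0.763, and that of each of the others was 0.848 or more.

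Rps27l was the single gene called higher in KO, in NK or ILC1, with 157 (WT) and 210.0 (KO) CPM, a ratio of 1.34 (1.04 to 1.73) from 81 and 306 UMIs. This call was lost when barcodes were thinned, when they were weighted equally and without the 8% of barcodes with most UMIs. In the other 5 classes its ratio lay between 0.838 in basophils and 0.986 in plasmacytoid dendritic cells. In the same class, 6 of 16 ribosome biogenesis genes were higher in KO and 0 were lower, with a median of 1.21. Of 7 cycling genes, 5 were higher, with a median of 1.79, although a smaller share of KO barcodes counted as cycling. Over all genes tested in NK or ILC1, 7.48% were higher and 5.94% lower, with a median of 0.999. In ILC precursors the biogenesis list ran the other way, with 9 of 17 lower in KO, 0 higher and a median of 0.798. Over all genes tested in that class, 11.9% were lower and 10.3% higher, with a median of 0.977. Npm1 had 958 (WT) and 764 (KO) CPM in ILC precursors, and Nop58 had 173 and 118 CPM. In ILC2 and lymphoid progenitors 1 of 14 and 0 of 22 biogenesis genes were lower and 0 were higher. Translation factors had 0 higher in 5 of the 6 classes and 1 of 17 higher in basophils, and at most 3 lower in any class. Over all genes tested, 4.61% to 10.3% were higher and 5.94% to 15.3% lower, depending on the class.

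**Figure D4:**
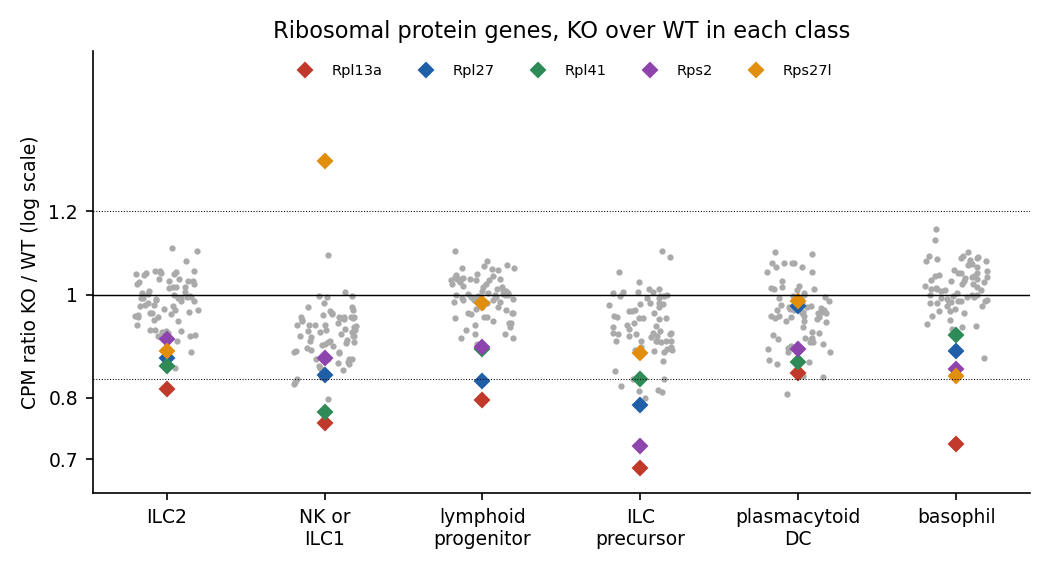
KO over WT ratio of CPM (log scale) for 77 ribosomal protein genes in 6 classes; grey points are single genes with sideways jitter, coloured diamonds name 5 of them, and dotted lines mark 1.2-fold either way. Rpl13a lies lowest or nearly so in each class, Rps27l is the point above 1.2 in NK or ILC1, and most points in ILC precursors and NK or ILC1 lie below 1.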

How the data were processed

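The values are UMI counts as deposited, unnormalized, produced by the authors with Cell Ranger (version 3.1.0 per the file headers) on mm10. Seurat is also named in the submitters' processing notes, without its role. No cell annotation was used. The ribosomal protein genes, gene lists and class markers were chosen with earlier results of these data known. Kept barcodes (at least 1000 genes, at most 10% mitochondrial UMIs) held 29168870 UMIs in WT and 42601457 in KO. Counts were summed per class and library with Python 3.11.15, numpy 2.4.6, pandas 2.3.3 and scipy 1.17.1. Shares have exact Clopper-Pearson 95% intervals and ratios exact binomial ones. A difference was called at 1.2-fold with an interval that left out 1, at least 50 UMIs in all and 50 CPM in the higher library. Uneven genes passed 1.5 in each library. That rule was written without a minimum, and the 50 CPM minimum of its background was then applied to the genes too, which left out Rpl3l, Rpl39l and Rpl10l. No doublet caller was run: the gate left out 1087 WT and 1493 KO barcodes that reached 3 markers but lay too close to another class, and 1 alternative removed the 8% of barcodes with most UMIs. The scripts were tested on simulated counts. Named genes were the 5 most abundant, up to 12 uneven ones, those called in most classes, paralogue pairs and up to 4 of each list. Background comparisons on genes of at least 1000 CPM and the ILC2 to progenitor comparison were added after seeing the data. Values of some single genes are not reported here.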

Additional observations from a re-analysis of the deposited data

Results flagged for a closer look

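The pooled ribosomal protein share moved in different directions in 2 classes, with a KO over WT ratio of 0.913 in NK or ILC1 and 1.02 in basophils. The basophil direction was not stable: the ratio was 0.881 when barcodes were thinned and 0.886 with equal weights. The same 2 classes differed for Rps12, at 0.833 in NK or ILC1 and 1.04 in basophils, and for Rps27l, at 1.34 in NK or ILC1 and 0.838 in basophils. Each ratio rests on 1 library per genotype, and the difference between the classes was not tested.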

How the results depend on the processing

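No paired analysis was possible because there is 1 library per genotype. ILC2 had the highest ribosomal protein share in both libraries under every setting run. The ratio of highest to lowest class (1.58 in WT, 1.59 in KO) became 1.52 in WT with at least 500 genes, 1.57 in WT and 1.68 in KO with at most 5% mitochondrial UMIs, 1.60 and 1.61 with at least 3000 UMIs, 1.65 and 1.68 without the 8% of barcodes with most UMIs, 1.53 and 1.74 when thinned to 2000 UMIs, 1.57 in WT with 6 more ribosomal protein genes, 1.57 and 1.77 with barcodes weighted equally, and 1.74 and 1.88 among barcodes of 3000 to 12000 UMIs, a range chosen after seeing the data. In that range the KO over WT share became 1.00 in ILC precursors and in plasmacytoid dendritic cells (from 0.943 and 0.967), and 0.920 in basophils. The basophil ratio (1.02) also turned to 0.988 with at least 500 genes, 0.978 without the deepest barcodes, 0.881 when thinned and 0.886 with equal weights, so its direction depends on depth and weighting; the cause was not tested. Uneven genes numbered 14 in place of 9 with 6 more ribosomal protein genes, which also enter the denominator, and 2 at 2-fold. Pairs lower in KO numbered 66 when thinned, 52 with equal weights and 8 per ribosomal protein UMI (added later), against 21. Pairs higher numbered 3 with at most 5% mitochondrial UMIs, 4 at 3000 to 12000 UMIs, and 0 when thinned, with equal weights or without the deepest barcodes, against 1. Rpl13a was lower in KO in 3 to 6 classes across 14 alternatives. Depth limits Rps27l in NK or ILC1 (81 WT UMIs) and the near-silent paralogues.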

Other observations

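Early B cells were too few for the comparison, with 43 WT and 33 KO barcodes, and their ribosomal protein share was 24.8% and 25.6%. Their per-barcode median went the other way, from 25.6% in WT to 22.4% in KO, and their median depth was 3584 and 11184 UMIs. In these barcodes Rps29 had 6891 (WT) and 8630.0 (KO) CPM, Rps27 at 2908 and 3589.8 CPM, Rps18 at 2765 and 3492 CPM, and Rpl5 at 1764 and 1368 CPM. The T cell gate held 6 WT and 26 KO barcodes with shares of 30.5% and 31.3%, and the ILC3 gate 1 and 6 barcodes with 18.8% and 18.7%. Barcodes outside every class numbered 1353 in WT and 1641 in KO, with shares of 25.4% and 24.9%.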
